A study of Catharanthus roseus with 15 samples.

Results

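Leaves of Catharanthus roseus (cultivar Vitae Rose Red) taken 24 h after a foliar spray with ethephon (ETH) were compared with leaves of the 0 h control across all genes, 3 libraries against 3. These are 6 of the 15 RNA sequencing libraries of the study, and they were chosen by time and treatment alone. The 24 h plants received 100 µM ETH, a compound that breaks down to ethylene inside plant tissue, and the 0 h plants, labelled as the control, were sampled without a day of treatment. All plants were greenhouse seedlings of this cultivar. The labels give an age of 2 weeks, whereas the methods of the study describe older seedlings, and the sources used here do not give the number of plants behind each library. A mock spray with water is described, but no water-sprayed library of 24 h was analysed here, so the effects of ETH, of being sprayed and of the day that passed cannot be told apart in this comparison. The other 9 libraries (ETH 3 h, methyl jasmonate (MJ) 3 h and MJ 24 h, also at 100 µM) entered the estimate of spread, and ETH 3 h and MJ 24 h served as side comparisons.

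Ethylene is a gaseous hormone that plants make in ripening, senescence, wounding and flooding. In Arabidopsis, where the pathway was worked out, the receptors (ETR1 and EIN4 among them) keep the kinase CTR1 active without the hormone, and CTR1 holds back the membrane protein EIN2. Binding of ethylene releases EIN2, which stabilises the transcription factors EIN3 and EIL1. EBF2, an F-box protein that targets EIN3 for degradation, is itself switched on by EIN3 and so forms a negative feedback loop. Leaves of C. roseus are the source of the monoterpenoid indole alkaloids (MIAs) vindoline and catharanthine, which are joined into the bisindole drugs vinblastine and vincristine, and the study asked how ethylene and jasmonate signals act on this pathway.

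The values deposited are raw read counts per gene. Library totals were 24778449 to 26148150 at 0 h and 23710688 to 28238451 at ETH 24 h, and levels are given below as CPM, each count scaled to the TMM-adjusted total of its library. A count of 3, the limit that a count of 0 allows, corresponds to 0.101 to 0.135 CPM in these 6 libraries, for counting error only. Pairwise Pearson correlations of the libraries on the log2(CPM + 1) scale, over all 18008 tested genes, were 0.985 to 0.988 within ETH 24 h, 0.955 to 0.987 within 0 h and 0.934 to 0.964 between the groups (genes are not independent replicates). Replicate 3 of 0 h stood apart: its 100 largest genes took 25.1% of its counts against 17.5 to 19.7% in the other 5 libraries. Photosynthetic leaf markers (4 genes) summed to 2828 to 6040 CPM at 0 h and 2179 to 2977 CPM at ETH 24 h, with most of the sum from PSAF and with psbB at 0 in all 6 libraries. Markers of meristem and dividing tissue (5 genes, STM at 0) summed to 7.96 to 9.78 and 7.34 to 12.2 CPM. Within this set SPCH went from 0.199, 0.0362 and 0.0899 CPM to 3.46, 1.32 and 3.4 CPM. Its log2 fold change was 4.61 (adjusted p = 0.266 in edgeR), against -0.01 and -0.55 for the ANT genes and -0.10 for CDC45. Markers of seed and embryo (4 genes) summed to 5.17 to 5.29 and 6.13 to 6.86 CPM, nearly all from 1 oleosin gene, the only member tested. Those of flower and pollen (4 genes) summed to 74.0 to 78.8 CPM at 0 h and 100.0 to 112 CPM at ETH 24 h, mostly from AP3. No tested marker gene was called in either direction, and psbB, STM, LEA4-5, WOX2 and the other oleosin gene were below the filter. The part of these shifts in the results below was not tested, and in whole leaves a smaller share of cells of a type and less RNA per cell cannot be told apart.

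One day after ETH, the called changes in the leaf transcriptome lay more often upward than downward, and genes of ethylene signalling were among those that rose. Of 18008 genes tested with edgeR's quasi-likelihood test, 393 (2.18%) are termed called below, by a p-value under 0.05 after Benjamini-Hochberg adjustment together with a change of more than 1.5-fold up or down. Of these, 239 (1.33%) were higher and 154 (0.855%) lower at ETH 24 h, and in each of them the 3 libraries of one group lay entirely above the 3 of the other. Such separation is common here, since the ETH libraries were all above the controls for 19.0% of tested genes and all below for 17.1%, or 6498 genes (36.1%) without overlap. An unadjusted p under 0.05 was reached by 3374 genes (18.7%), and the median log2 fold change (log2FC) of all tested genes was -0.01. Among the 239 higher genes the median change was 2.73-fold, 79 changed more than 4-fold and 20 more than 16-fold. Among the 154 lower genes the median was 2.5-fold, 47 changed more than 4-fold and 10 more than 16-fold. Only 20 of the higher and 4 of the lower genes carry a name or a described Arabidopsis match in the tables that could be read, so most of the response is known by gene ID alone. Over the 6 libraries 42 of the higher and 21 of the lower genes had a mean above 100 CPM, and 8 and 6 had a mean under 1 CPM.

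**Figure D1:**
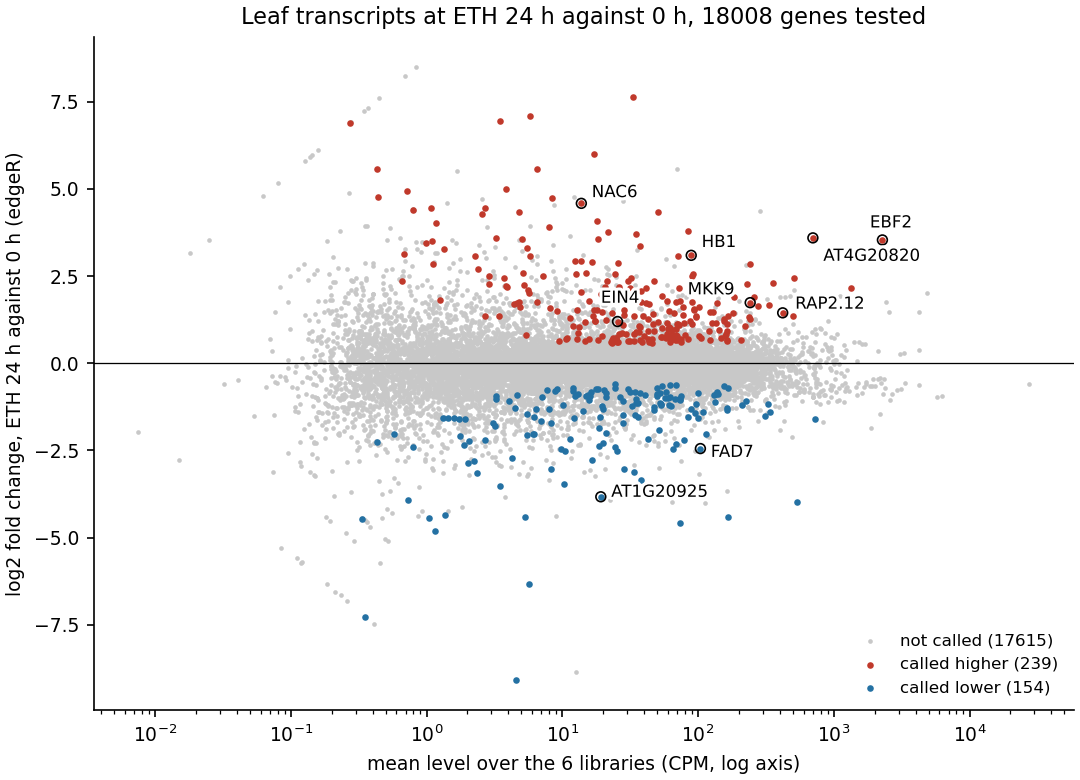
Each point is 1 of the 18008 tested genes, with its mean level over the 6 libraries (CPM, log axis) against its log2FC at ETH 24 h relative to 0 h. Red points are the 239 genes called higher, blue points the 154 called lower, and grey points were not called. Circles mark the labelled genes, with EBF2 at 3.54 and AT1G20925 at -3.83.

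The size of the call list depended on single libraries and on the tool. Leaving out 0 h replicate 1 left 83 called genes, replicate 2 left 182 and replicate 3 left 144. Leaving out ETH 24 h replicate 1 left 103, replicate 2 left 127 and replicate 3 left 111. DESeq2 called 1129 genes, limma voom 2765 and edgeR with only these 6 libraries in the fit 1175, and with these the excess of higher calls was gone, since the share of higher genes among the called was 43.8%, 44.0% and 49.4% against 60.8%. DESeq2 called 388 of the 393 genes and voom 380, and of the 24 called genes with a name they called 24 and 23. Of these 24 genes, 10 kept their call whichever of the 6 libraries was left out, and those that did not are marked as they come.

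**Figure D2:**
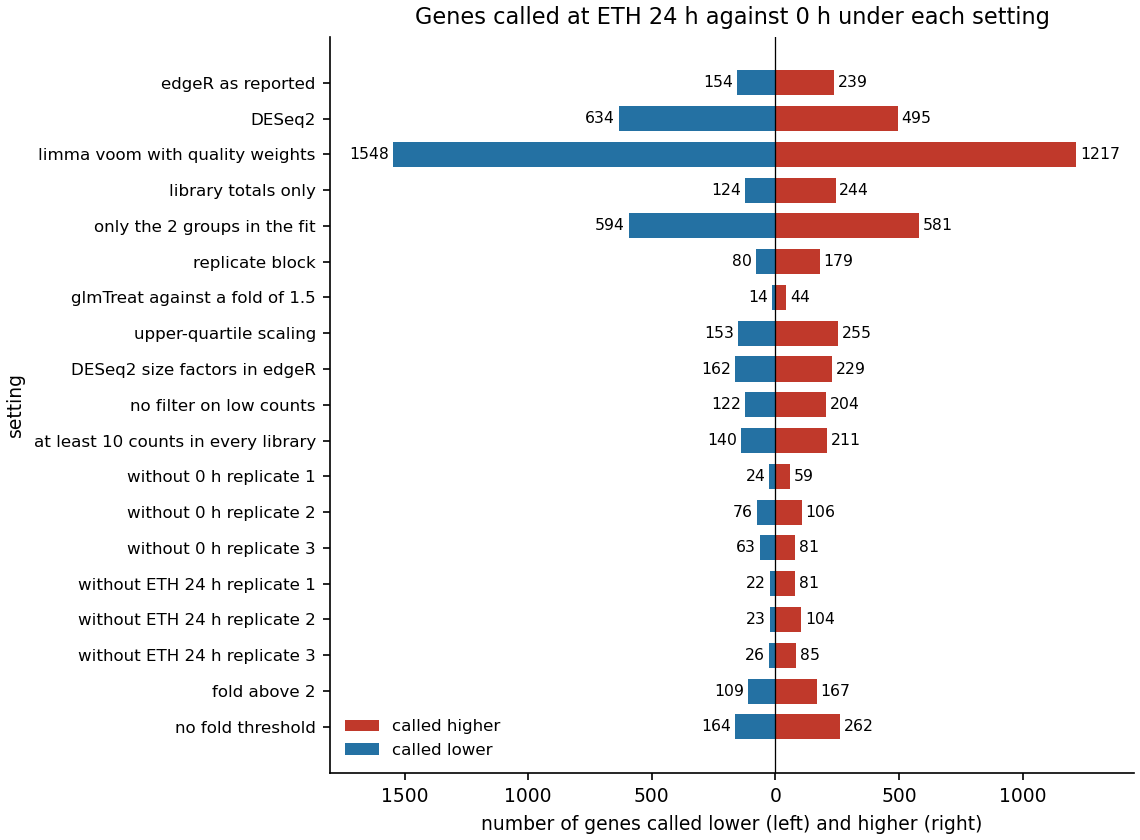
Bars show how many genes were called higher (right, red) and lower (left, blue) at ETH 24 h against 0 h under each way of testing, with the counts printed at the bar ends. The list as reported holds 239 and 154 genes, and leaving out 1 library left 59 to 106 higher and 22 to 76 lower.

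The clearest named group was ethylene signalling. Of its 10 members 9 were tested, 4 rose and 0 fell, a share to be read against the 1.33% of all genes called higher. The median log2FC of the 9 was 0.46, against -0.01 over all genes, and all 9 had a positive value. Most members were taken from network tables that the study built on these same libraries, so their common direction is not independent evidence. The calls of these 4 genes held in each of the 6 fits that left out a library.

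Among the receptors, EIN4 (CRO_020097) was at 15.3, 16.8 and 14.3 CPM in the 0 h libraries and at 36.1, 37.2 and 33.1 CPM at ETH 24 h. All 3 ETH libraries lay well above the highest control, with a log2FC of 1.20 (SE 0.170, adjusted p = 0.00488 in edgeR). ETR1 (CRO_016354), another receptor, was at 17.8, 18.6 and 18.1 CPM and then at 23.6, 23.0 and 23.1 CPM, a smaller difference of 0.35 on the log2 scale that was not called (SE 0.106, adjusted p = 0.108). Its groups did not overlap, but neither the adjusted p nor the fold passed. CTR1 (CRO_000074, cro_scaffold_3006207, positions 16 to 9270, + strand), the kinase below the receptors, went from 58.0, 57.8 and 56.0 CPM to 87.0, 97.2 and 92.4 CPM (log2FC 0.69, SE 0.114, adjusted p = 0.0113). All 3 ETH libraries lay well above a tight control group, at 1.61 times the level. The calls of EIN4 and CTR1 were lost when the test asked for a change beyond 1.5-fold (glmTreat).

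Further down the pathway EBF2 was called and EIN2 and EIN3 were not. The EIN2 genes, CRO_006809 and CRO_030101, had log2FC values of 0.16 (SE 0.0885, adjusted p = 0.353) and 0.11 (SE 0.0903, adjusted p = 0.557). EIN3 (CRO_017077) was at 577, 567 and 534 CPM at 0 h and at 747, 806 and 754 CPM at ETH 24 h. Its groups were separate, and the log2FC of 0.46 did not pass (SE 0.138, adjusted p = 0.108). EIL1 (CRO_031898) was below the filter, with 1 count in 0 h replicate 3 and 0 in each of the other 5 libraries, so that no change could be detected at this depth. EBF2 (CRO_005880) was at 381, 434 and 269.9 CPM at 0 h and at 3975, 4209 and 4397 CPM at ETH 24 h. The lowest ETH library was thus several times the highest control, and the log2FC was 3.54 (11.6-fold, SE 0.353, adjusted p = 6.25e-04), called in each of the 16 alternative fits.

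MKK9 (CRO_011505), a MAP kinase kinase that has been linked to ethylene signalling and leaf senescence in Arabidopsis, went from 112, 135 and 88.4 CPM to 340.2, 383 and 394 CPM. Again the groups were far apart, with a log2FC of 1.74 (3.33-fold, SE 0.210, adjusted p = 0.00197). EER4 (CRO_010073), named for an enhanced ethylene response in Arabidopsis, showed overlapping groups (log2FC 0.05, SE 0.120, adjusted p = 0.848). The ordering within the list was therefore EBF2 far above the rest, then MKK9, EIN4 and CTR1, with EIN3 and ETR1 below the threshold and the EIN2 genes and EER4 near 0.

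**Figure D3:**
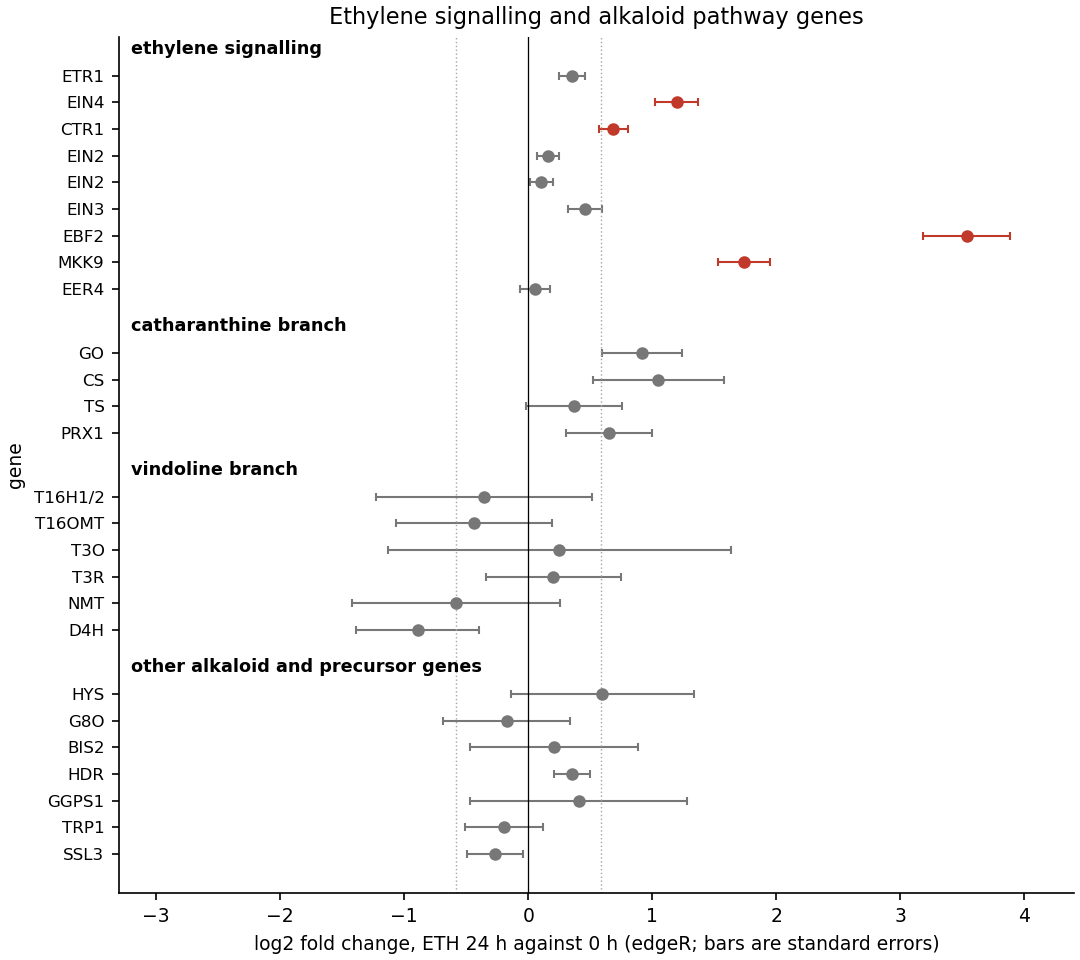
Log2 fold change at ETH 24 h against 0 h with its standard error for each tested gene of ethylene signalling and of 3 alkaloid lists, red where called and grey where not. Dotted lines mark a fold of 1.5 in each direction. EBF2 (3.54), MKK9 (1.74), EIN4 (1.20) and CTR1 (0.69) were called, and 0 alkaloid genes were.

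Transcription factors made up another group of named genes that rose. Over 5 lists of factors (AP2/ERF, WRKY, MYB, bHLH, and senescence-linked and HD-Zip factors) 45 of 48 members were tested, 8 rose and 0 fell, to be read against the 1.33% of all genes called higher and the 0.855% called lower. Most of these names also came from the network tables built on these libraries, so their direction is again not independent evidence. By list, 2 of 9 AP2/ERF, 4 of 14 bHLH and 2 of 7 senescence-linked and HD-Zip factors rose (1.33% over all genes), and 0 of 6 WRKY and 0 of 9 MYB factors did.

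RAP2.12 (CRO_001062), an ERF factor that acts in the low-oxygen response of Arabidopsis, was at 224, 262 and 192 CPM at 0 h and at 652, 579 and 613 CPM at ETH 24 h. Each ETH library exceeded each control more than 2-fold, with a log2FC of 1.44 (SE 0.152, adjusted p = 6.58e-04), called in each of the 16 alternatives. RAV1 (CRO_031165), which carries an AP2 and a B3 domain, went from 177, 198 and 105 CPM to 529, 502 and 488 CPM (log2FC 1.66, SE 0.292, adjusted p = 0.0153). Its lowest control was 0 h replicate 3, the library that stood apart, and without it the call held, whereas it was lost without 0 h replicate 1 or ETH 24 h replicate 1 (adjusted p up to 0.0604). ERF15 (CRO_019273) was at 1.35, 7.90 and 0.674 CPM and then at 12.6, 17.5 and 19.6 CPM. The controls were scattered and the log2FC of 2.31 was not called (SE 0.728, adjusted p = 0.120). This rested on 0 h replicate 2, the highest control, without which the log2FC was 4.0 and the gene was called (adjusted p = 0.0130), and DESeq2 and voom called it with all libraries.

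Of the bHLH factors, bHLH130 (CRO_004901) was at 103, 124 and 102 CPM and then at 379, 411 and 432 CPM (log2FC 1.89, SE 0.304, adjusted p = 0.00961). The 3 ETH libraries lay close together far above the controls, and the call was lost only without 0 h replicate 1 (adjusted p = 0.0593) among the 6 fits that left out a library. bHLH128 (CRO_000849) went from 40.2, 41.6 and 24.1 CPM to 85.6, 101 and 103 CPM (log2FC 1.45, SE 0.268, adjusted p = 0.0187), a call that only the fit without 0 h replicate 2 kept (adjusted p up to 0.0664 in the others). A bHLH gene without a further name, CRO_015412, was at 86.8, 115 and 107 CPM and then at 202, 257 and 214 CPM. All ETH values were above all controls, and the log2FC of 1.12 (SE 0.139, adjusted p = 0.00228) held in the 6 fits that left out a library. AT1G25330 (CRO_000811), a gene with low counts whose closest Arabidopsis match is a bHLH factor, was at 0.278, 0.761 and 0.450 CPM at 0 h and at 7.15, 6.22 and 4.69 CPM at ETH 24 h. The groups were far apart on the log scale (log2FC 3.58, SE 0.575, adjusted p = 0.00961), and the call was lost without 0 h replicate 1 or replicate 3 (adjusted p up to 0.0612).

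HB1 (CRO_026277), named as a homeodomain factor, was at 16, 25.2 and 14.8 CPM at 0 h and at 169, 147 and 163 CPM at ETH 24 h. It was near-silent in no library, yet each ETH library was several times each control (log2FC 3.09, 8.54-fold, SE 0.415, adjusted p = 0.00371), and each of the 16 alternatives called it. NAC6 (CRO_025185), a member of the NAC family of factors, was at 1.59, 1.20 and 0.494 CPM and then at 20.1, 28.1 and 31.3 CPM. The log2FC was 4.59 (24.0-fold, SE 0.839, adjusted p = 0.0181). Its call was less secure than its size: of the fits that left out a library, only that without ETH 24 h replicate 1 kept it (adjusted p = 0.0471), and the 5 others gave up to 0.0744.

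WRKY and MYB factors were not called (0 of 6 and 0 of 9 tested). That is near the 2.18% called over all genes and is no result about these families. All 6 WRKY factors had a positive log2FC (median 0.75), and 4 had an unadjusted p under 0.05 (18.7% of all tested genes did), the highest being WRKY4 (CRO_010846) at 1.08 (SE 0.303, adjusted p = 0.0879). Of the 9 tested MYB factors 8 had a positive value and 1, MYB62 (CRO_000813), a negative one (-0.28, adjusted p = 0.552). MYB305 (CRO_000501) was at 27, 33.3 and 27 CPM and then at 238, 113 and 76.1 CPM. All ETH libraries lay above the controls but were widely scattered, and the log2FC of 2.29 did not pass (SE 0.671, adjusted p = 0.101), though DESeq2 and voom called it. It was 1.67 without ETH 24 h replicate 1, the highest library. Of the 6 WRKY factors, 4 were called with voom and 1 with DESeq2, which called 2765 and 1129 of all 18008 genes.

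Outside the signalling and factor lists, the named genes that rose encode enzymes and proteins of varied function. AT4G20820 (CRO_000174, cro_scaffold_2959637, positions 9216 to 10856, - strand), a match to a FAD-binding oxidase of the berberine family, was at 114, 148 and 59.8 CPM at 0 h and at 1417, 1218 and 1252 CPM at ETH 24 h. The 3 ETH libraries agreed closely at a level that no control approached (log2FC 3.59, 12.1-fold, SE 0.583, adjusted p = 0.00972), and the call was lost only without 0 h replicate 1 (adjusted p = 0.0593) among the fits that left out a library. CYP71B10 (CRO_000351), a match to a cytochrome P450, was at 0.318, 0.109 and 0.315 CPM and then at 2.86, 2.87 and 1.54 CPM. This low-count change of 3.28 on the log2 scale (SE 0.681, adjusted p = 0.0305) lost its call without any single library of the 6 (adjusted p as high as 0.109). These are the 2 called members of 13 tested in a list of specialised-metabolism enzyme families, against 1.33% of all genes called higher.

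AT1G66430 (CRO_000061, cro_scaffold_2961789, positions 10173 to 13230, - strand), a match to a pfkB-like carbohydrate kinase, went from 53.2, 49.8 and 62.1 CPM to 134, 129.7 and 148 CPM. AT4G16490 (CRO_000339), a match to an ARM repeat protein, went from 87.9, 86.4 and 103 CPM to 209, 206 and 229 CPM. Both rose with little spread in either group, by 1.32 (SE 0.134) and 1.22 (SE 0.125) on the log2 scale with an adjusted p of 6.58e-04 each, and both held in each fit that left out a library. AFP2 (CRO_000141), which in Arabidopsis binds the abscisic acid factor ABI5, went from 7.03, 8.30 and 8.86 CPM to 13.6, 12.7 and 13.1 CPM. It rose by 0.70 (SE 0.142, adjusted p = 0.0279) and was no longer called without any single library of the 6 (adjusted p as high as 0.140).

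Another 3 called genes with a name, which fell outside the rule for named genes and were picked after their values were seen, are LBA1, HLL and AT1G01490. LBA1 (CRO_000406), a match to an RNA helicase of nonsense-mediated decay, was at 22.4, 21.4 and 19.9 CPM and then at 35.7, 36.8 and 40.3 CPM (log2FC 0.82, SE 0.147, adjusted p = 0.0162). HLL (CRO_000814), a match to a ribosomal protein of the L14 family, had a log2FC of 0.85 (SE 0.155, adjusted p = 0.0180), and AT1G01490 (CRO_000922), a match to a heavy metal transport protein, of 0.94 (SE 0.183, adjusted p = 0.0237). In all of them the ETH libraries lay above the controls, and the calls of LBA1 and AT1G01490 were lost without any 1 library (adjusted p up to 0.0907 and 0.113), that of HLL without any but ETH 24 h replicate 3 (up to 0.0986).

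The 4 named genes that fell have roles in transport, lipid metabolism and calcium binding, apart from 1 of unassigned role. AT1G20925 (CRO_000328, cro_scaffold_2991705, positions 158 to 3451, - strand), a match to a family of auxin efflux carriers, was at 31.2, 40.8 and 35.4 CPM at 0 h and at 1.77, 2.03 and 3.76 CPM at ETH 24 h. The 3 ETH libraries were all far below the controls, and the transcript fell by 3.83 on the log2 scale (14.2-fold, SE 0.515, adjusted p = 0.00374), called in each of the 16 alternatives. It and AFP2 are the 2 called members of 12 tested in the list of auxin, gibberellin and abscisic acid genes, 1 in each direction, against 2.18% of all genes called.

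FAD7 (CRO_000423, cro_scaffold_2962642, positions 8479 to 11562, - strand), a plastid desaturase that makes the trienoic fatty acids from which jasmonate is built, was at 185, 296 and 45.2 CPM at 0 h and at 20.5, 32.1 and 43.8 CPM at ETH 24 h. The groups barely separated, because 0 h replicate 3, the library that stood apart, was almost at the level of ETH 24 h replicate 3. FAD7 had the weakest of the named calls (by adjusted p) and fell by 2.45 on the log2 scale (SE 0.579, adjusted p = 0.0487). Without 0 h replicate 3 it was called (adjusted p = 0.0142), and without any other library it was not (adjusted p up to 0.188), and without 0 h replicate 2, the highest control, the fall was 1.85. PLA-Ib2 (CRO_000862), a match to a lipase-like hydrolase in the same list of jasmonate synthesis genes, had a log2FC of -1.22 and was not called (SE 0.421, adjusted p = 0.149). Of the 3 tested members of that list 1, FAD7, was called lower, against 0.855% of all genes.

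AT3G59440 (CRO_000449), a match to an EF-hand calcium-binding protein, went from 44.2, 36.7 and 42.3 CPM to 13.1, 16 and 15.2 CPM. The controls and the ETH libraries were each tight and well apart, with a fall of 1.47 (SE 0.320, adjusted p = 0.0359) that was lost without any 1 library (adjusted p up to 0.137). AT3G14330 (CRO_000943), a match to a TPR-like protein, went from 72.6, 66.1 and 86.0 CPM to 46.6, 48.4 and 51.4 CPM. It fell by 0.62 (SE 0.138, adjusted p = 0.0413), and of the fits that left out a library only that without 0 h replicate 2 kept the call (adjusted p up to 0.147 in the others).

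**Figure D4:**
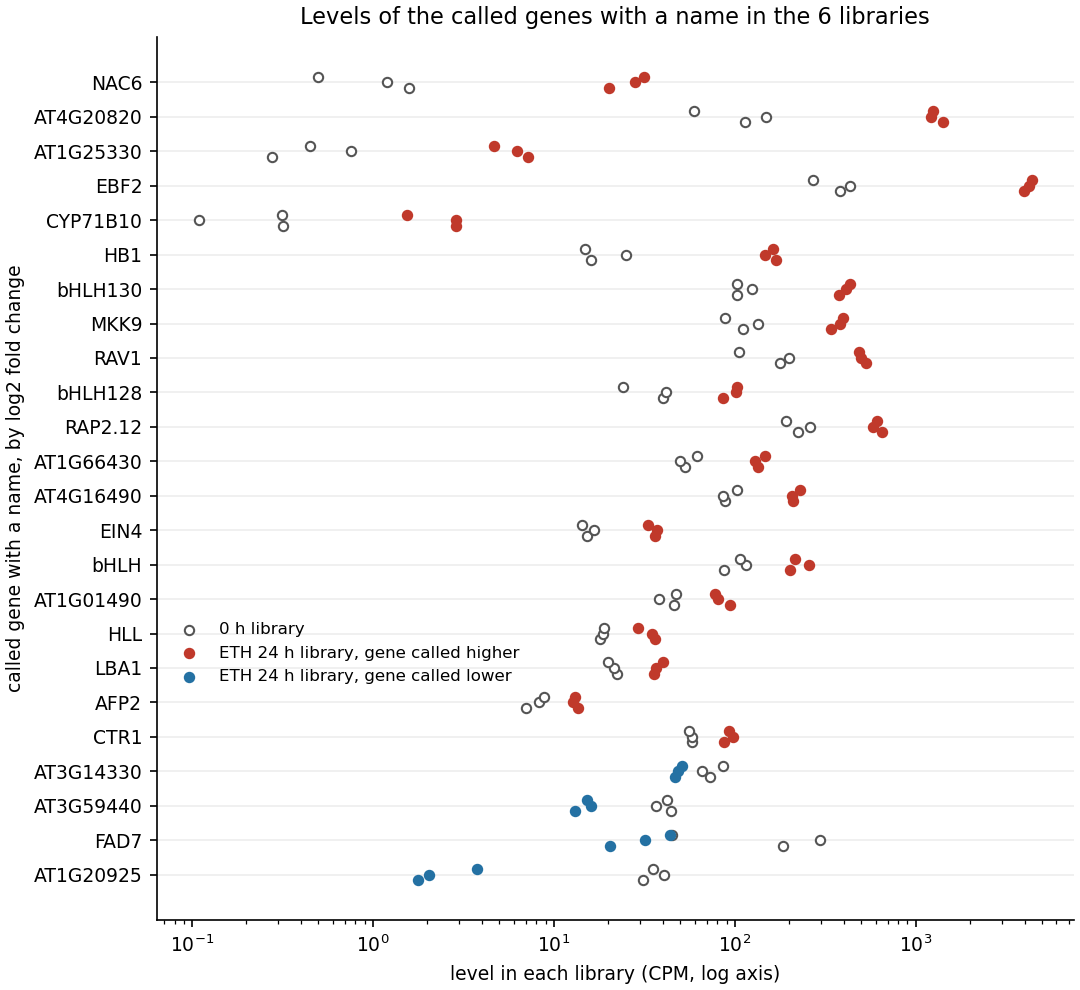
Level in each of the 6 libraries (CPM, log axis) of the 24 called genes with a name, ordered by log2FC, with 0 h as open circles and ETH 24 h as filled circles, red for higher and blue for lower. The groups are separate in every line, from a rise of 24.0-fold in NAC6 to a fall of 14.2-fold in AT1G20925. In FAD7 the lowest control (45.2 CPM) and the highest ETH library (43.8 CPM) nearly coincide.

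The largest called changes at a mean above 1 CPM belonged to genes known by ID alone. CRO_011528 was at 0.318, 0.507 and 0.135 CPM at 0 h and at 82.3, 41.7 and 73.7 CPM at ETH 24 h, from barely detected to well expressed (log2FC 7.63, SE 1.63, adjusted p = 0.0340). Its call was lost without any 1 library (adjusted p up to 0.146). CRO_003531 was at 0.119, 0.0725 and 0.0450 CPM, at or under the 3-count limit in each control, and then at 15, 10.4 and 8.93 CPM, and its 6 counts at 0 h against 928 gave a ratio of 145 (95% exact interval 66.7 to 396, counting error only). Its log2FC of 7.09 (SE 0.791, adjusted p = 0.00113) held in each fit that left out a library. CRO_017678 was at 0.556, 0.652 and 0.315 CPM and then at 37.3, 22.6 and 40.4 CPM (log2FC 6.01, SE 0.716, adjusted p = 0.00184), and likewise held. CRO_026081, with 4 counts over the 3 controls, all of them in 0 h replicate 2, and 558 at ETH 24 h, had a fitted log2FC of 6.94 (SE 1.24, adjusted p = 0.0164), lost without replicate 1 of either group or replicate 3 of 0 h (adjusted p up to 0.0843). Without 0 h replicate 2 the other controls were at 0, and the fitted value of 10.54 then depends on the prior count. CRO_010160 had 5.58 (SE 0.836, adjusted p = 0.00710), lost without 0 h replicate 1 (adjusted p = 0.0510).

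Among the falls by ID, CRO_024951 was at 134, 190.1 and 97.4 CPM at 0 h and at 6.62, 6.76 and 4.16 CPM at ETH 24 h. The ETH libraries agreed at a small part of any control (log2FC -4.58, 24.0-fold lower, SE 0.640, adjusted p = 0.00458). CRO_018266 went from 3.34, 2.25 and 1.08 CPM to 0.0753, 0.0676 and 0.0809 CPM, under the 3-count limit in each ETH library (log2FC -4.82, SE 0.476, adjusted p = 6.12e-04). Both calls held in each fit that left out a library. CRO_012326 had the largest fitted fall (-9.08, SE 1.94, adjusted p = 0.0341), but its controls were at 5.64, 21.6 and 0.180 CPM, a wide spread, and ETH 24 h held 1 count in all. The ratio of 743 to 1 counts was 679 with a 95% exact interval of 122 to 26800, for counting error only. CRO_027810, at 6.68, 26.7 and 0.315 CPM in the controls, showed the same order of the 0 h libraries and fell by 6.33 (SE 1.38, adjusted p = 0.0361). Without 0 h replicate 3 both were called (adjusted p of 0.0118 and 0.00992), and without any other library neither was (adjusted p up to 0.146 and 0.149). The fitted values ran from -10.96 to -7.45 for CRO_012326 and from -6.92 to -4.67 for CRO_027810 over the fits without 1 library, smallest in size without 0 h replicate 2, the highest control of both, and for CRO_012326 largest without ETH 24 h replicate 3, which held the 1 ETH count, so that this value depends on the prior count. CRO_003581 fell by 4.43 (SE 0.940, adjusted p = 0.0340), lost without any 1 library (adjusted p up to 0.112), with values from -5.04 without ETH 24 h replicate 1 to -3.84 without replicate 2.

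None of the 17 tested genes of the MIA pathway and its supply was called, which is near the 2.18% called over all genes and is no result about these genes. The catharanthine branch (GO, CS, TS and PRX1, each tested) had 4 positive values and a median log2FC of 0.78 against -0.01 over all genes, with 3 of the 4 separate between the groups, as 36.1% of all genes were. These 4 were also taken from tables that the study chose on these libraries. GO (CRO_002621), geissoschizine oxidase, was at 12.6, 13.4 and 7.64 CPM at 0 h and at 21.4, 21.4 and 20.9 CPM at ETH 24 h. All ETH libraries were above all controls and very tight, and with the scatter of the controls the log2FC of 0.92 did not pass (SE 0.320, adjusted p = 0.155). CS (CRO_021730), catharanthine synthase, was near the detection limit at 0.318, 0.435 and 0.450 CPM and then at 0.941, 0.913 and 0.647 CPM (log2FC 1.05, SE 0.531, adjusted p = 0.313). TS (CRO_011212), tabersonine synthase, was at 813, 1268 and 392.4 CPM and then at 1142, 993 and 1065 CPM. Here the groups overlapped, with 0 h replicate 2 above every ETH library (log2FC 0.37, SE 0.385, adjusted p = 0.641). PRX1 (CRO_011338), the peroxidase that couples vindoline and catharanthine, was at 322, 416 and 196 CPM and then at 456, 529 and 481 CPM, separate but not called (log2FC 0.65, SE 0.35, adjusted p = 0.345). The lowest control of GO, TS and PRX1 was 0 h replicate 3, and edgeR without it also called 0 of the 4. With all libraries, limma voom with quality weights called 3 of the 4, and 2765 of all 18008 genes.

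The vindoline branch had 2 positive and 4 negative values (median -0.40) and 0 calls among 6 tested. D4H (CRO_012504), the desacetoxyvindoline hydroxylase, was at 217, 129 and 251 CPM at 0 h and at 118, 89.1 and 114 CPM at ETH 24 h. It was the single member with separate groups, all ETH libraries lower, where 36.1% of all genes were separate and 17.1% lower in this way. D4H did not pass (log2FC -0.89, SE 0.500, adjusted p = 0.364), though limma voom with quality weights called it lower (adjusted p = 0.0202). The others overlapped between the groups: T16H1/2 (CRO_017447) had -0.36, T16OMT (CRO_004356) -0.44, NMT (CRO_033266) -0.58, T3R (CRO_021541) 0.20 and T3O (CRO_009296) 0.25 as log2FC values, with adjusted p from 0.752 to 0.946. For T16H1/2, T16OMT, T3R, NMT and D4H the highest control was 0 h replicate 3. Of 7 other genes of alkaloid and precursor supply 0 were called. HDR (CRO_000829), which completes the plastid route to isoprenoid precursors, was at 551.5, 552 and 623 CPM and then at 861, 682 and 663 CPM, separate with a log2FC of 0.35 (SE 0.148, adjusted p = 0.227). SSL3 (CRO_000880), a strictosidine synthase-like gene, had -0.27, TRP1 (CRO_000534) of tryptophan synthesis -0.19, G8O (CRO_015220) of the iridoid pathway -0.17, the iridoid regulator BIS2 (CRO_009037) 0.21, GGPS1 (CRO_000908) 0.41 and HYS (CRO_008342) of ajmalicine synthesis 0.60, none with an adjusted p under 0.548.

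Over 25 gene lists built from the names in the study's tables, 254 of 300 members were tested, 15 rose and 2 fell (6.69% against the 2.18% called over all genes), and these 17 lay in 7 lists. Members were chosen with earlier results of these data known, so the larger share is a description and not independent evidence. The other 18 lists, with 187 tested members, held 0 calls. They hold some genes each of the nuclear-encoded chloroplast, translation, protein turnover, heat shock, cell wall, replication and division, patterning, light and clock, transporters, defence, primary metabolism and chromatin. Organelle-encoded genes (1 of 10 tested) and the alkaloid, WRKY and MYB lists given above complete them. Annotation could be read for 1022 of 33829 gene lines, so a list holds only part of its process. Its 0 calls are no result about that process. The absence of calls depended on the tool for some of them. With DESeq2 and limma voom, transporters held 3 and 6 calls of 19 tested, patterning 2 and 3 of 14 and nuclear chloroplast genes 0 and 3 of 20. These are to be read against the 1129 and 2765 of 18008 genes that the tools called in all. Translation and chromatin held 0 with either. Of the nuclear chloroplast genes 16 of 20 had a negative value, with a median log2FC of -0.27. ALB4 (CRO_000979), which inserts proteins into the thylakoid membrane, was at 308, 284 and 418 CPM and then at 262, 252 and 265 CPM, and the plastid protease subunit CLPP5 (CRO_000529) at 227, 198 and 263 CPM and then at 176, 157 and 173 CPM. In both, 0 h replicate 3 was the highest library and every ETH library was below the controls, with log2FC values of -0.37 (adjusted p = 0.228) and -0.44 (adjusted p = 0.165). Among transporters, OPT3 (CRO_000102), an oligopeptide transporter family member, was at 126, 96.7 and 150.2 CPM and then at 299, 289.7 and 271 CPM (log2FC 1.20, SE 0.317, adjusted p = 0.0725). PIF4 (CRO_000223), a light-regulated bHLH factor, had 0.83 (SE 0.225, adjusted p = 0.0785), and neither was called. Both were called with DESeq2, limma voom, library totals in place of TMM and only the compared groups in the fit, and PIF4 also with the replicate block.

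The state at ETH 24 h was also set against MJ 24 h, the other hormone at the same time after spraying. The 0 h levels do not enter this difference, but the 0 h libraries entered the filter, the scaling and the estimate of spread. Here 187 genes were called (1.04%), 108 (0.600%) higher and 79 (0.439%) lower at ETH 24 h. Leaving out a library left 20 to 198. The count was 32, 59 and 20 when replicate 1, 2 or 3 of ETH 24 h was dropped, and 29, 36 and 198 when that of MJ 24 h was. Of the 9 tested genes of ethylene signalling, 3 were higher at ETH 24 h than at MJ 24 h. EBF2 was at 759, 899 and 1679 CPM in the MJ 24 h libraries, all below the ETH 24 h libraries, with a log2 difference of 1.91 (SE 0.331, adjusted p = 0.0213). EIN4 was at 15.1, 16 and 19.9 CPM at MJ 24 h (log2 difference 1.06, adjusted p = 0.0131), and MKK9 at 146, 169 and 188 CPM (1.15, adjusted p = 0.0261). None of the MJ 24 h values reached the lowest ETH 24 h library of its gene. CTR1, at 65.7, 72.3 and 78.1 CPM, was also below every ETH library, and its difference of 0.36 was not called (adjusted p = 0.166).

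Among the other genes, RAP2.12 was at 284, 312 and 358 CPM at MJ 24 h, a log2 difference of 0.95 (SE 0.15, adjusted p = 0.0130). HB1 was at 22.3, 41.5 and 72.2 CPM, and its difference of 1.81 just missed the threshold (SE 0.394, adjusted p = 0.0514). AT1G66430 was at 55.9, 67.0 and 66.9 CPM, close to its 0 h level, and the difference of 1.12 passed (SE 0.133, adjusted p = 0.00320). AT1G20925 was at 22.4, 14.4 and 3.91 CPM at MJ 24 h, so that replicate 3 there was almost as low as ETH 24 h replicate 3 (log2 difference -2.43, SE 0.491, adjusted p = 0.0379). Replicate 3 of MJ 24 h also had the highest EBF2, MKK9, EIN4, CTR1, RAP2.12, HB1 and NAC6 of its group and the lowest AT1G20925, FAD7 and CRO_024951, and without it 198 genes were called. Against 0 h, with the same 3 controls as ETH 24 h, MJ 24 h itself had 3 genes called higher (0.0167%) and 2 lower (0.0111%), 0.0278% in all. The log2FC values from those shared controls were 3.54 at ETH 24 h and 1.62 at MJ 24 h for EBF2 (adjusted p = 0.122 for the latter), and 1.20 and 0.13 for EIN4.

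Against ETH 3 h, 652 genes were called (3.62%), 321 (1.78%) higher and 331 (1.84%) lower at 24 h, and leaving out a library left 20 to 539. The count was 539, 53 and 467 when replicate 1, 2 or 3 of ETH 3 h was dropped, and 82, 92 and 20 when that of ETH 24 h was. Of the 9 tested ethylene signalling genes 0 were among them. EBF2 was at 3929, 4111 and 4129.5 CPM at ETH 3 h, with a log2 difference between the times of 0.05 (adjusted p = 0.948), and EIN4 at 37.0, 32.8 and 34.3 CPM (0.03, adjusted p = 0.934). The levels of the ETH 3 h libraries fell within or beside those of ETH 24 h. A miss of the threshold does not show that the levels are equal. CRO_024951 was at 45.9, 43.8 and 50.7 CPM at ETH 3 h, between the controls and ETH 24 h, and was lower at 24 h than at 3 h by 3.00 on the log2 scale (adjusted p = 0.0207). FAD7 was at 100.4, 131 and 155 CPM at ETH 3 h, each above the 3 ETH 24 h libraries, and the difference of -2.0 was not called (adjusted p = 0.0626). AT3G14330, which was lower at ETH 24 h than at 0 h, was higher at 24 h than at 3 h by 0.84 (adjusted p = 0.0131). Relative to the shared 0 h controls, ETH 3 h had 858 higher (4.76%) and 1286 lower (7.14%) calls (11.9% in all), beside the 393 of ETH 24 h.

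**Figure D5:**
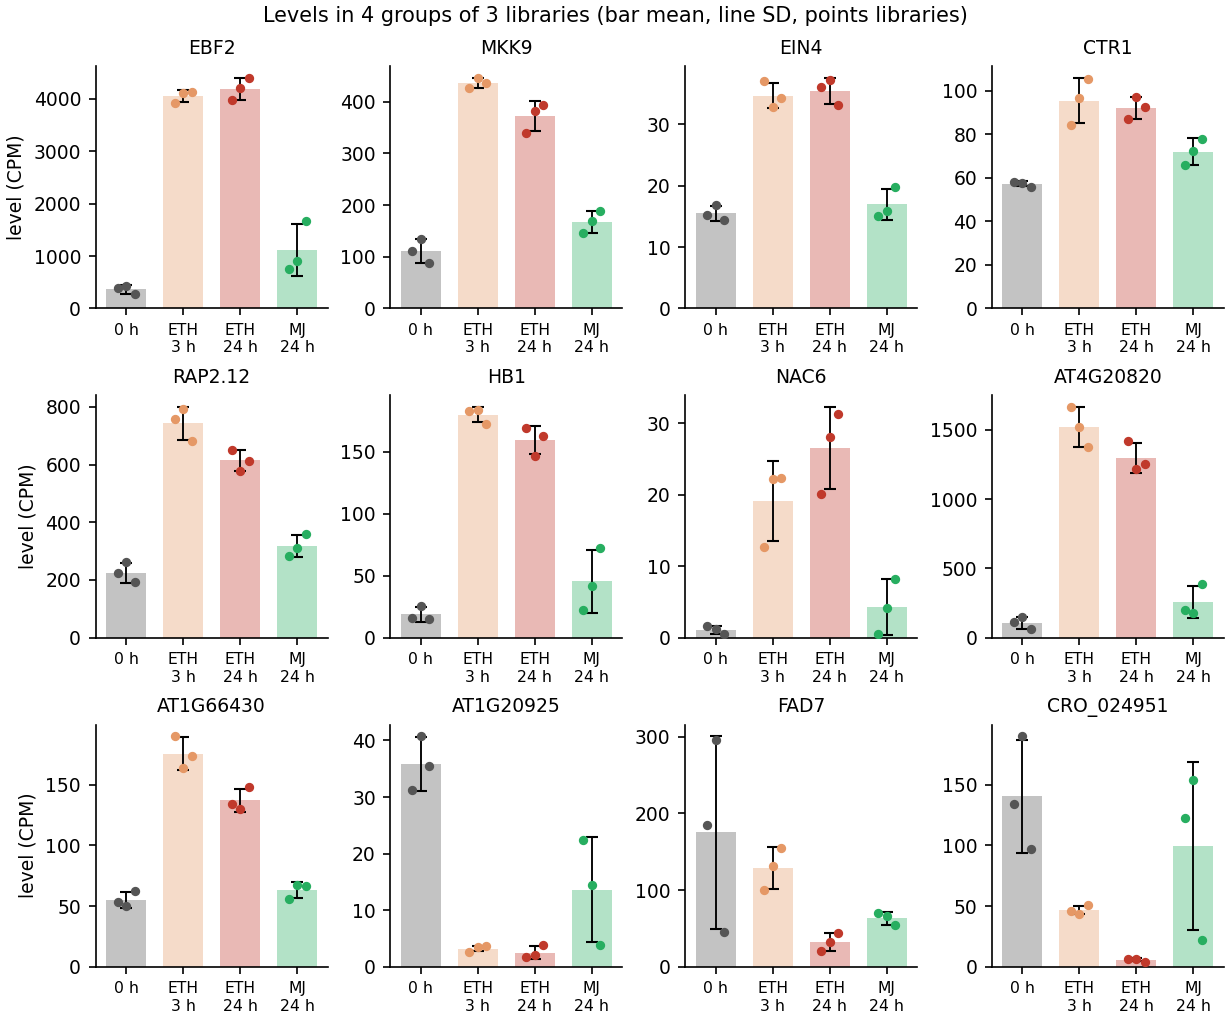
Levels of 12 genes in 4 groups of 3 libraries (CPM, linear axes from 0), with bars for the mean, lines for the SD and points for the libraries. In the 9 genes that rose, each ETH 24 h library lies above every 0 h and MJ 24 h library, and in CRO_024951 they lie below ETH 3 h as well.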

How the data were processed

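Leaf RNA of 15 samples (5 groups of 3) was sequenced from stranded mRNA libraries as paired reads. The authors aligned cleaned reads with HISAT2 (2.0.4, per the processing notes of the submitters) and deposited raw counts per gene made with HTSeq. The genome source used, of those the methods name, and the strand setting are named nowhere in the sources used here, so antisense pairs may not be told apart. The table holds 33829 genes, of which 18008 (53.2%) passed edgeR's filterByExpr. Groups came from the sample labels, whose extraction text names an animal brain region and whose tissue field gives leaf. Whether the 3 libraries of a group came from separate plants is not stated there, so p-values measure the spread between these libraries.

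Counts were TMM-scaled and fitted with edgeR 4.0.16 (R 4.3.3) in a quasi-likelihood model with a mean per group over all 15 libraries, without a replicate term. Benjamini-Hochberg adjustment ran over the 18008 genes, and SE is the log2 fold change divided by the square root of F. Alternatives were DESeq2 1.42.0, limma 3.58.1 voom with quality weights, other scalings, filters and fold thresholds, glmTreat, fitting only the groups compared, a replicate term and leaving out each library. The test code was checked on simulated counts. The 16 alternative fits per gene leave out the other fold thresholds.

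Members and lists were chosen with earlier results of these data known. Named genes are all members of the 3 alkaloid lists and ethylene signalling, called members of the other lists, the 15 largest called changes per direction with a name or described Arabidopsis match, the 5 largest per direction by ID with a mean above 1 CPM, and uncalled list members with an unadjusted p under 0.05. An Arabidopsis symbol is a match to another species. Names and positions came from the study's tables, of which the annotation could be read for 1022 of 33829 lines, 538 with a description, and its build is not named. Of the IDs, 0 matched a RefSeq table of 37298 genes. Figures were drawn with matplotlib 3.10.9.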

Additional observations from a re-analysis of the deposited data

Results flagged for a closer look

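The genes below changed from 0 h to ETH 24 h by an amount that differed from their change at MJ 24 h or at ETH 3 h, tested as the direct difference between the treated groups, from which the 0 h libraries cancel (edgeR's quasi-likelihood test, Benjamini-Hochberg over 18008 genes, 3 libraries a group). Values are log2 differences, and 22 such results were found among the 91 named genes. Over all genes 1.04% were called against MJ 24 h and 3.62% against ETH 3 h, and most of the named genes were picked for their change at ETH 24 h against 0 h, so the count is a description.

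At ETH 24 h against MJ 24 h, 3 ethylene signalling genes differed: EBF2 by 1.91 (adjusted p = 0.0213), MKK9 by 1.15 (adjusted p = 0.0261) and EIN4 by 1.06 (adjusted p = 0.0131). Of the factors, RAP2.12 differed by 0.95 (adjusted p = 0.0130) and ERF15 by 4.20 (adjusted p = 0.0349), the latter although ERF15 was not called against 0 h. AT1G66430, the match to a carbohydrate kinase, differed by 1.12 (adjusted p = 0.00320), LBA1 by 0.92 (adjusted p = 0.0135) and AT1G20925, the match to an auxin efflux carrier, by -2.43 (adjusted p = 0.0379). Among genes known by ID, CRO_026081 differed by 7.0 (adjusted p = 0.0254), CRO_017678 by 6.68 (adjusted p = 0.00213), CRO_010160 by 4.93 (adjusted p = 0.0138) and CRO_003531 by 4.60 (adjusted p = 0.00951). In the other direction CRO_018266 differed by -4.54 (adjusted p = 0.00154) and CRO_024951 by -4.09 (adjusted p = 0.0127).

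At ETH 24 h against ETH 3 h, the fall of CRO_024951 was larger at 24 h by -3.0 (adjusted p = 0.0207) and that of CRO_018266 by -1.87 (adjusted p = 0.0453). AT4G10490, a match to a 2-oxoglutarate-dependent oxygenase, differed by -2.42 (adjusted p = 0.0237), PLA-Ib2 by -1.79 (adjusted p = 0.0360) and AT3G02560, a match to a small-subunit ribosomal protein, by -0.82 (adjusted p = 0.0220). Higher at 24 h than at 3 h were AT3G14330 by 0.84 (adjusted p = 0.0131), AUD1, a match to an NAD(P)-binding Rossmann-fold protein, by 0.71 (adjusted p = 0.0407), and LBA1 by 0.60 (adjusted p = 0.0384).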

How the results depend on the processing

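The count of 393 genes called at ETH 24 h against 0 h became 1129 with DESeq2, 2765 with limma voom, 1175 with only these groups in the fit and 58 with glmTreat. The 239 higher genes became 495, 1217, 581 and 44, and the 154 lower genes 634, 1548, 594 and 14. The replicate block left 259 called, 80 of them lower, and 19 of the 24 named calls. Same-numbered libraries of 0 h and ETH 24 h correlated in their deviations from the group means at -0.0941, 0.4546 and 0.3617. Differently numbered libraries did so at -0.5332 to 0.3029. These values do not settle whether the numbers pair the libraries, and the reported fit held no replicate term. Leaving out 1 library gave 83 to 182 called, 59 to 106 higher and 22 to 76 lower. Against MJ 24 h the 187 called became 803 with DESeq2, 1654 with voom, 552 with only these groups, 118 with the replicate block and 20 to 198 without 1 library. Against ETH 3 h the 652 called became 1354 with DESeq2, 2218 with voom, 532 with the replicate block and 20 to 539 without 1 library. Library totals in place of TMM called 244 higher and 124 lower and moved the median log2 fold change of all genes to 0.058. The 24 called genes with a name and the 10 given by ID kept their direction in all 531 alternatives tried and their call in 412. Of the 24 with a name, 7 kept their call in every fit. Of 889 alternatives of uncalled genes 55 gave a call and 10 a change of sign: T16H1/2 (0.00), BIS2 (-0.13), GGPS1 (-0.26) and EER4 (-0.02) with voom, GGPS1 (-0.04) and EER4 (-0.02) without 0 h replicate 3, BIS2 (-0.28) without ETH 24 h replicate 1, GGPS1 (-0.37) without replicate 2, and T3O (-0.14) and G8O (0.08) without replicate 3. Without 1 library these genes ranged up to 0.67 (T3O), 0.46 (BIS2), 0.78 (GGPS1) and 0.09 (EER4), and G8O down to -0.74. The cause of these shifts was not tested. With 3 libraries a group, changes of low-count genes such as CS and T3O were not resolved.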
